A study of Mus musculus with 12 samples.

Results

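Transcripts of 10 mouse genes of the ATF4 stress programme and of serine and one-carbon metabolism were followed across 12 libraries of splenic B cells. They were taken by gene symbol from the 23282 rows of the count table, in which each of the 10 had a single row: Atf4, Ddit3, Chac1, Trib3, Asns, Phgdh, Psat1, Psph, Shmt2 and Mthfd2. After low counts were filtered out 11857 genes were tested, among them 9 of the 10. Chac1 was not tested, since it had 10 counts in all.

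Each of 4 groups had 3 libraries: ODN+IM156, ODN, IM156 and control. The mice were wild-type C57BL/6 by their labels, although the series is described as one on lupus-prone mice, and were 7 weeks old. ODN mice received 50 µg of CpG-ODN 1826, a class B synthetic DNA that stimulates the receptor TLR9, in the peritoneum on days 1 and 3. IM156 mice received 30 mg/kg of IM156, named as an inhibitor of oxidative phosphorylation, by the same route on days 0 and 2, and ODN+IM156 mice received both. Control mice have "None" as their treatment, and no vehicle is named. All spleens were collected on day 4, and no allele or transgene is listed for any group. How B cells were purified, the sex of the mice and whether each library came from its own animal are not given in the sources used here, so the p-values measure the spread between these libraries, which may be technical. B cells cannot be told from other cells inside a bulk library, and there fewer cells of a type and less RNA per cell cannot be told apart.

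In the integrated stress response, kinases that sense unfolded protein, amino acid shortage, haem shortage or viral RNA phosphorylate the initiation factor eIF2. Most translation then falls, while that of Atf4 messenger RNA rises, so that the protein ATF4 can increase with little change of its transcript. ATF4 activates genes for amino acid import and synthesis, including the serine pathway from a glycolytic intermediate (Phgdh, Psat1, Psph), and, with prolonged stress, Ddit3, Trib3 and Chac1. Serine supplies carbon units through the mitochondrial enzymes Shmt2 and Mthfd2 to folate, which carries them to purine and thymidylate synthesis in dividing lymphocytes. Inhibition of the respiratory chain is known to raise ATF4 target genes in several mammalian cell types.

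ATF4 binds DNA with C/EBP proteins at a composite element with the core TGATGNAA. This core was searched on both strands in RefSeq promoters of the GRCm38.p6 assembly, which run from 250 bases before to 50 bases after the start of a gene; all 10 members had one. It was found in 3 members, Asns, Chac1 and Trib3, and in 3.97% of 32851 promoters of the same 300 bases. The promoters of these 3 genes are shown first, 5′ to 3′ on the strand of the gene, with the core in capitals.

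Asns, chr6:7693160-7693459, minus strand: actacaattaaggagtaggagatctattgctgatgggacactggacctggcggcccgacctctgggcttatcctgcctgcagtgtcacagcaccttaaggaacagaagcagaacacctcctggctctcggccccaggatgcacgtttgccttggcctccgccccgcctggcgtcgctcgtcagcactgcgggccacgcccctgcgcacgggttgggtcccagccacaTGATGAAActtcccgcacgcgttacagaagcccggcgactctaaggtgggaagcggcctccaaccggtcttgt

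Chac1, chr2:119350992-119351291, plus strand: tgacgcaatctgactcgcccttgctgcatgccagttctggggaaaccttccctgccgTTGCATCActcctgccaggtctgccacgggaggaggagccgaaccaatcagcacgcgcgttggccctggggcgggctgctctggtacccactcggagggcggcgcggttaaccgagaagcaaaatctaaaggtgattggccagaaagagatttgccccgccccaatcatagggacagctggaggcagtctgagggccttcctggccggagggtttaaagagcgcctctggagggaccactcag

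Trib3, chr2:152344011-152344310, minus strand: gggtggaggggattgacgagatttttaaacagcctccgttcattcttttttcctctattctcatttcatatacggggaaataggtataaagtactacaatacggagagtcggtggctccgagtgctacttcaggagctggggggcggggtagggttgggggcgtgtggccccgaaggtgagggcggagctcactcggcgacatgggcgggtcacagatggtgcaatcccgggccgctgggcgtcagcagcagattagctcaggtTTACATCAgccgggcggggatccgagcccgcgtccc

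In Asns the core reads TGATGAAA on the strand of the gene and lies 23 to 16 bases before the start. In Chac1 and Trib3 the core is on the opposite strand, so that the strand of the gene, as printed, shows its reverse complement. This is TTGCATCA, 193 to 186 bases before the start, in Chac1 and TTACATCA, 15 to 22 bases after the start, in Trib3. These 3 genes were also the members with the fewest counts, with 143, 10 and 80 counts over all 12 libraries. The promoters of the 3 members that rose with ODN are shown next. They have no match to the core in this window, and Psat1 is given at the first of its listed starts.

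Psat1, chr19:15925010-15925309, minus strand: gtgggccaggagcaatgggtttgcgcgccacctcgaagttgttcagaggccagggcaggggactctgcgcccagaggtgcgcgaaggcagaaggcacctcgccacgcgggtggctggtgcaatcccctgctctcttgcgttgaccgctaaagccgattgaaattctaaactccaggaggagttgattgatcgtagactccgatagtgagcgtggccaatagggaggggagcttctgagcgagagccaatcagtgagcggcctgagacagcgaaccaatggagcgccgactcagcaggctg

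Psph, chr5:129787204-129787503, minus strand: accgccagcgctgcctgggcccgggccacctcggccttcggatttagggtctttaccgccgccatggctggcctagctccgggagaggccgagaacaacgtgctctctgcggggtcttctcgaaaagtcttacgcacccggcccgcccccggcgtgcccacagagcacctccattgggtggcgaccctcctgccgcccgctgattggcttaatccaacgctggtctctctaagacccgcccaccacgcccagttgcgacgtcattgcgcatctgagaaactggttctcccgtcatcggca

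Mthfd2, chr6:83317555-83317854, minus strand: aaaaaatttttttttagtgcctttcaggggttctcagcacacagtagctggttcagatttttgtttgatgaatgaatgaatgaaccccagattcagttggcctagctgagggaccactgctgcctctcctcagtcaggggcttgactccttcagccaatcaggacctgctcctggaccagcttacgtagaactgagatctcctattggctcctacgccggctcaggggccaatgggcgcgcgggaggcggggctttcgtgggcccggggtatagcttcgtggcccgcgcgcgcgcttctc

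The E-box CACGTG was in none of the 10 members' promoters and in 7.15% of all promoters. These matches describe letters in a window and say nothing of binding.

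Total counts per library were 9650775 to 11532525. The libraries contained 1.46% to 9.63% of a ribosomal RNA row (Rn45s), with ODN replicate 2 the lowest. ODN replicate 3 had 1 count of Xist, the transcript of the inactive X chromosome, where the other libraries had 924 to 1320 counts-per-million units (CPM). ODN replicate 1 had the highest summed level of 20 mitosis genes, 3079 CPM. All 14 B-cell markers looked for (Cd79a, Ms4a1, Pax5 and others) were detected in every group and summed to 12976 to 15944 CPM. Levels are CPM of the scaled library, given as mean ± SD, and a gene was called changed at an adjusted p below 0.05 in edgeR's quasi-likelihood test.

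With ODN alone, 4 of the 9 tested members were called against control, as were 10.6% of all tested genes. Of these members 3 enzymes rose and Atf4 itself fell. Psat1 was 1.59-fold, Psph 1.51-fold and Mthfd2 1.40-fold the control level, and Atf4 was at 0.783 of it. Only Psph kept its call under all 20 other settings tried. Psat1 was called under 18 of them, and Mthfd2 and Atf4 under 14 each. Ddit3, which encodes the stress-induced factor CHOP, was called in no comparison, and its group means lay between 58.7 and 62.6 CPM. In IM156 mice no member was called against control, and the best-counted members lay within narrow intervals around no change. When IM156 was given with ODN, the 3 enzymes had lower mean levels than with ODN alone, without a call.

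**Figure D1:**
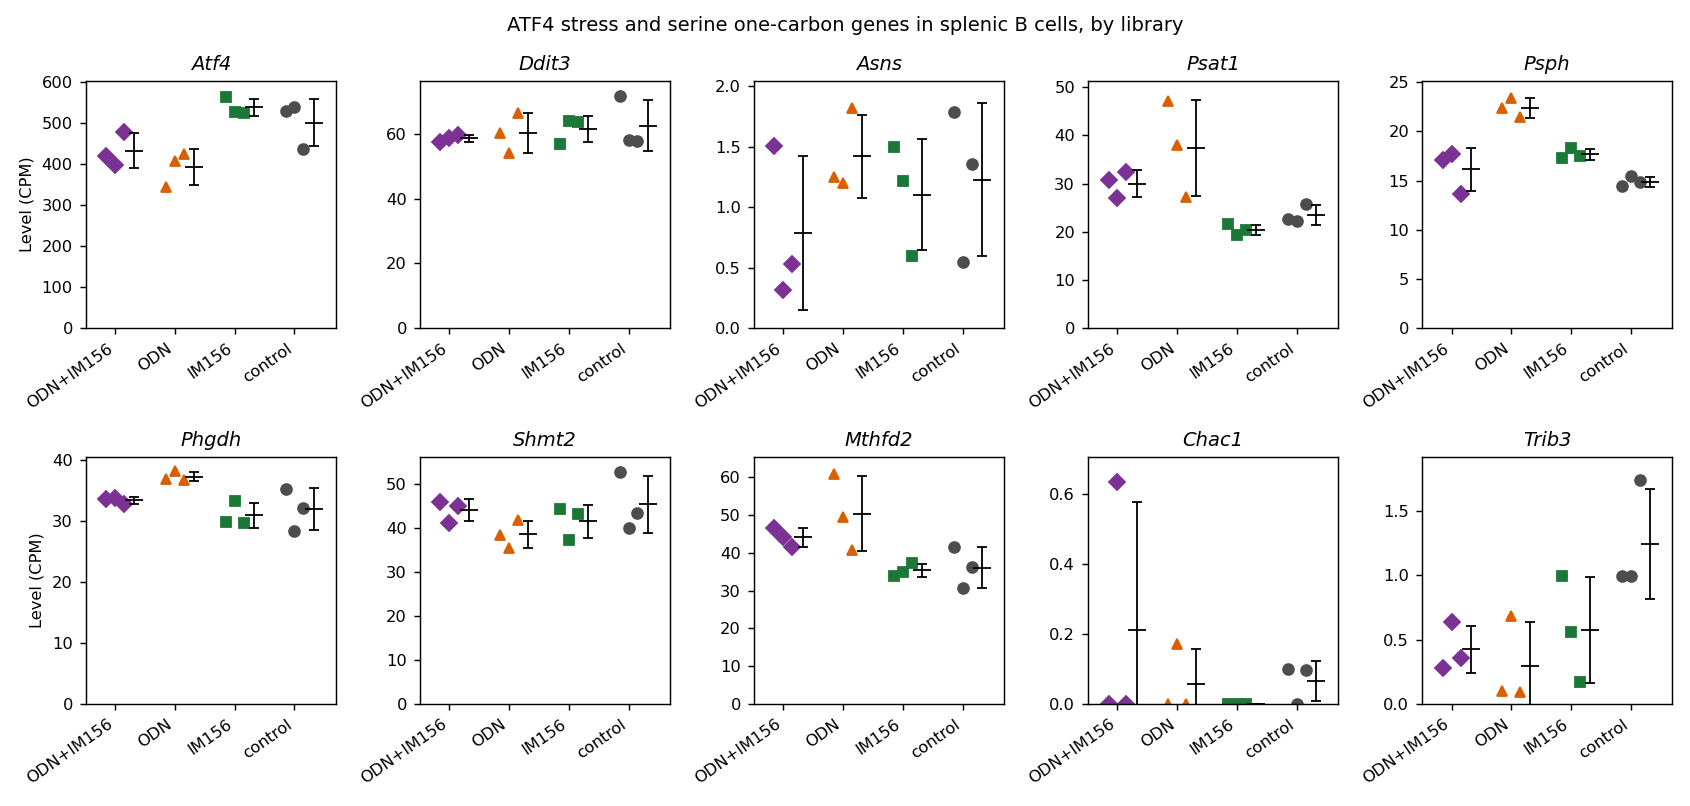
Level of the 10 members in each of the 12 libraries (y axis, CPM from 0; x axis, group; points are libraries in replicate order, bars the mean ± SD of 3 libraries, drawn from 0 up). All 3 ODN libraries lie above all control libraries in Psat1 (27.3 to 47.2 CPM against 22.1 to 25.8) and Psph (21.4 to 23.4 against 14.4 to 15.4), and below them in Atf4 (344 to 426 against 436 to 540).

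The stress factors come first. Atf4, the transcription factor of the response, had 421, 398 and 480 CPM in ODN+IM156 replicates 1, 2 and 3, 344, 409 and 426 CPM in ODN, 564, 528 and 526 CPM in IM156, and 530, 540 and 436 CPM in control. All ODN libraries were below all control libraries, although ODN replicate 3 and control replicate 3 were close, and the IM156 libraries overlapped with control. Atf4 averaged 393 ± 43.2 CPM in ODN and 502 ± 57.2 CPM in control (SD, n = 3 each). It fell by 0.35 on the log2 scale (SE 0.104, 95% interval -0.57 to -0.14, adjusted p = 0.0349 in edgeR). This call is near the threshold, and leaving out any of 4 libraries ended it. The log2 value was then -0.27 for ODN replicate 1 (adjusted p = 0.149 in edgeR), -0.31 for control replicate 1 (0.0985), -0.30 for control replicate 2 (0.134) and -0.35 for IM156 replicate 2 (0.0548). The gene spans chr15:80255184-80257541 on the plus strand of GRCm38.

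Ddit3 encodes CHOP, which ATF4 induces and which promotes cell death under lasting stress. It had 57.6, 58.8 and 59.6 CPM in ODN+IM156, 60.3, 54.1 and 66.4 CPM in ODN, 56.8, 63.9 and 63.8 CPM in IM156, and 71.9, 58.3 and 57.8 CPM in control. Control replicate 1 was the highest library, and every group overlapped with every other. Its log2 fold change was -0.06 for ODN against control (95% interval -0.28 to 0.17, adjusted p = 0.792 in edgeR). For IM156 against control it was -0.02 (-0.25 to 0.20, adjusted p = 0.999 in edgeR), which bounds a rise at 1.15-fold and a fall at 0.841 of control. At its 3′ end Ddit3 shares 68 exon bases with Mars on the opposite strand (66.5 to 90.6 CPM), and a further Ddit3 locus lies within it on the same strand. Reads there cannot be told apart, as no strand rule of the counting is given.

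Trib3, a pseudokinase that ATF4 induces and that restrains ATF4 in turn, was scarce. It had 3, 6 and 4 counts in ODN+IM156, 1, 8 and 1 counts in ODN, 10, 6 and 2 counts in IM156, and 10, 11 and 18 counts in control. The control libraries were above all ODN and ODN+IM156 libraries, and overlapped with IM156. Its log2 fold change for ODN against control was -1.97 (SE 0.773, 95% interval -3.59 to -0.35) and was not called (adjusted p = 0.114 in edgeR). Without ODN replicate 2, which had 8 of the group's 10 counts, it was -3.49 (adjusted p = 0.0494 in edgeR). For IM156 against control it was -1.12 (-2.61 to 0.37, adjusted p = 0.999 in edgeR).

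Chac1, which breaks down glutathione and is another gene downstream of ATF4, was at the edge of detection. It had 0, 6 and 0 counts in ODN+IM156, 0, 2 and 0 in ODN, 0 in each IM156 library, and 1, 0 and 1 in control. The 6 counts of ODN+IM156 came from replicate 2 alone (95% Poisson interval of the group's sum 2.20 to 13.1 counts). The same interval for the count of 0 over the IM156 group reaches 3.69 counts, or 0.114 CPM, so that a difference from control was not detectable at this depth. Such intervals cover counting error only.

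Asns makes asparagine from aspartate and is a classical target of ATF4. It had 16, 3 and 6 counts in ODN+IM156, 12, 14 and 19 in ODN, 15, 13 and 7 in IM156, and 18, 6 and 14 in control. The groups overlapped throughout. The 95% interval of its log2 fold change ran from -1.03 to 1.46 for ODN against control and from -1.43 to 1.12 for IM156 against control. Both intervals include a 2-fold change in either direction.

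The serine synthesis enzymes differed among themselves. Phgdh, which catalyses the first and committed step, had 33.7, 33.7 and 32.8 CPM in ODN+IM156, 36.97, 38.1 and 36.7 CPM in ODN, 29.8, 33.3 and 29.7 CPM in IM156, and 35.3, 28.4 and 32.1 CPM in control. The ODN libraries lay above those of every other group, though their margin over control was small. The log2 fold change for ODN against control was 0.22 (95% interval -0.01 to 0.46) and was not called (adjusted p = 0.216 in edgeR). A processed pseudogene, Phgdh-ps1 on chr7, is annotated.

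Psat1, the aminotransferase of the next step, had 30.8, 26.95 and 32.3 CPM in ODN+IM156, 47.2, 37.96 and 27.3 CPM in ODN, 21.5, 19.4 and 20.3 CPM in IM156, and 22.6, 22.1 and 25.8 CPM in control. Its ODN libraries were spread widely but all above control, and replicate 3 was near the highest control library. Psat1 rose in ODN by a log2 fold change of 0.67 (SE 0.159, 95% interval 0.34 to 1.00, adjusted p = 0.00929 in edgeR). Without ODN replicate 1 it was 0.47 (adjusted p = 0.0603 in edgeR). Without ODN replicate 3, the library with 1 Xist count, it was 0.85 (adjusted p = 0.000236 in edgeR). The gene spans chr19:15904678-15947337 on the minus strand.

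Psph, the phosphatase that releases serine in the last step, had 17.1, 17.8 and 13.6 CPM in ODN+IM156, 22.4, 23.4 and 21.4 CPM in ODN, 17.3, 18.3 and 17.5 CPM in IM156, and 14.4, 15.4 and 14.8 CPM in control. The ODN libraries were above all 9 others, and the IM156 libraries lay between ODN and control without touching either. Psph averaged 22.4 ± 1.01 CPM in ODN and 14.9 ± 0.511 CPM in control (SD, n = 3 each). It rose in ODN by a log2 fold change of 0.59 (SE 0.141, 95% interval 0.30 to 0.89, adjusted p = 0.00985 in edgeR). Among the members Psph alone was called in this comparison under each of the 20 other settings tried, between 0.52 and 0.62. It lies at chr5:129765558-129787449 on the minus strand. It shares 452 exon bases with Cct6a on the opposite strand at its 5′ end, away from the end that these libraries read.

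The mitochondrial one-carbon enzymes also differed. Shmt2, which splits serine into glycine and a folate-bound carbon, had 45.9, 41.2 and 44.9 CPM in ODN+IM156, 38.3, 35.6 and 41.7 CPM in ODN, 44.3, 37.3 and 43.2 CPM in IM156, and 52.7, 39.9 and 43.5 CPM in control. All groups overlapped, and the ODN mean was the lowest. Its log2 fold change for ODN against control was -0.24 (95% interval -0.49 to 0.02, adjusted p = 0.230 in edgeR). Its last 32 bases overlap with Ndufa4l2 on the opposite strand, which had 1.74 to 4.17 CPM.

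Mthfd2, which oxidises that folate-bound carbon and is known for high expression in proliferating cells, had 46.5, 44.1 and 41.7 CPM in ODN+IM156, 60.8, 49.5 and 40.9 CPM in ODN, 33.8, 34.96 and 37.3 CPM in IM156, and 41.5, 30.6 and 36.2 CPM in control. ODN replicate 3 was below control replicate 1, so the groups overlapped. Mthfd2 rose in ODN by a log2 fold change of 0.48 (SE 0.137, 95% interval 0.19 to 0.77, adjusted p = 0.0292 in edgeR). Leaving out any of 4 libraries ended the call: ODN replicate 1 (0.33, adjusted p = 0.162 in edgeR), ODN replicate 2 (0.49, 0.0575), control replicate 2 (0.37, 0.140) or control replicate 3 (0.48, 0.0814). The gene spans chr6:83305691-83325908 on the minus strand.

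In all, 4 of the 9 tested members were called for ODN against control, 3 higher and 1 lower, where 10.6% of all tested genes were called (7.34% higher and 3.25% lower). When libraries were scaled by their totals alone, all calls split into 695 higher and 720 lower instead of 870 higher and 385 lower, and 3 members (Atf4, Psat1 and Psph) were called. Without overlap between the groups stood 5 of the 9 members (Atf4, Psat1, Psph, Phgdh and Trib3), and 24.4% of all tested genes. The median log2 fold change was 0.22 for the 9 members and -0.005 for all tested genes. The members' median was the value of Asns, which had 3 to 19 counts per library and an interval from -1.03 to 1.46. It therefore does not show a shared rise, and 5 of the 9 members lay above 0. The members' median also moved with single libraries: it was -0.11 without control replicate 2, where Asns turned to -0.14. Without ODN replicate 3 it was -0.0054, again the value of Asns. Without ODN replicate 3, with its 1 Xist count, all 4 members were called, with log2 values of 0.85 for Psat1, 0.61 for Psph, 0.60 for Mthfd2 and -0.42 for Atf4. Without ODN replicate 2, with the least Rn45s, Psat1 (0.66), Psph (0.56), Atf4 (-0.38) and Trib3 were called.

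**Figure D2:**
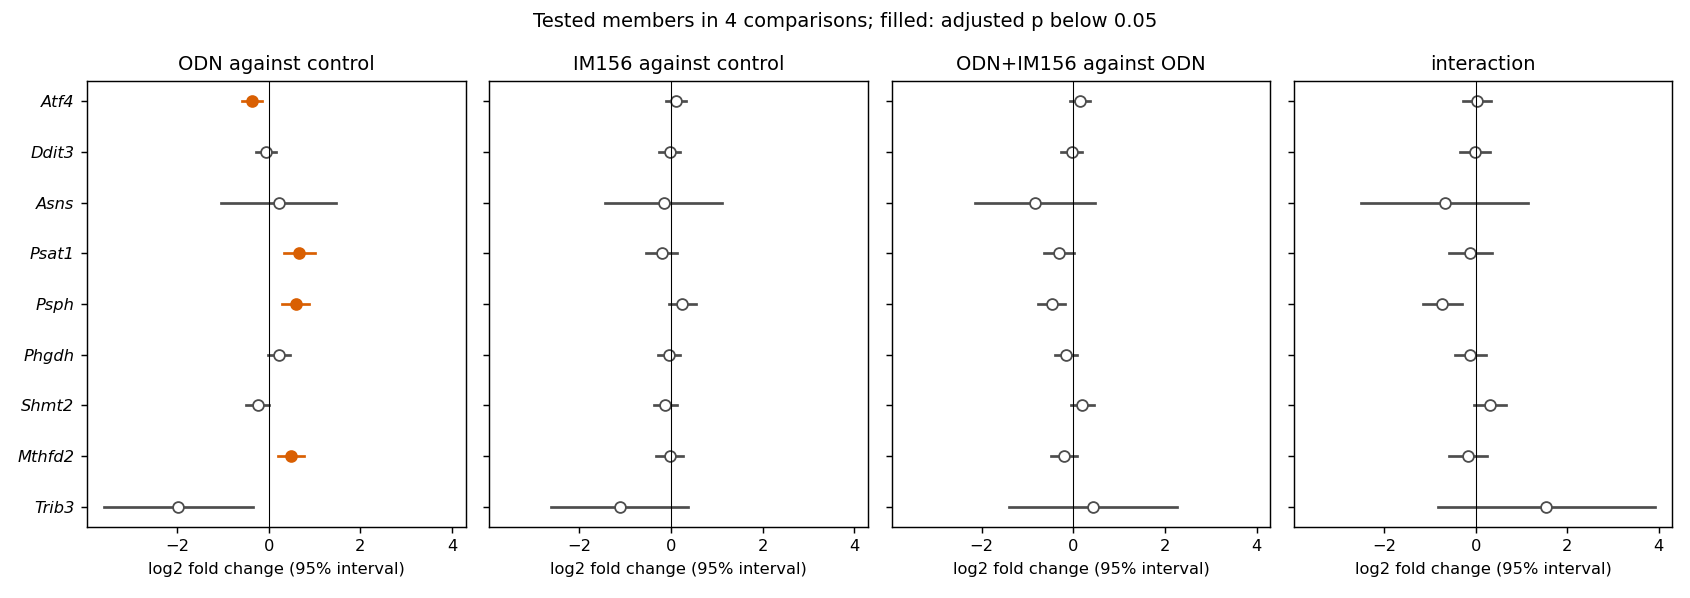
Log2 fold change with its 95% interval (x axis) of the 9 tested members (y axis) in 4 comparisons; filled orange points have an adjusted p below 0.05, and the interaction is the IM156 effect with ODN minus that without. Atf4, Psat1, Psph and Mthfd2 are filled for ODN against control, from -0.35 to 0.67, and no point is filled elsewhere.

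Library by library, the risers were set beside the mitosis genes. Summed over 20 mitosis genes, the level was 630, 1004 and 898 CPM in ODN+IM156, 3079, 1377 and 854 CPM in ODN, 373, 342 and 269 CPM in IM156, and 463, 302 and 569 CPM in control. Within ODN, Psat1 and Mthfd2 were ordered as the mitosis sum was over the 3 libraries, whereas Psph had its highest level in replicate 2 and varied little. The order was not shared throughout the other groups. In ODN+IM156, Psat1 was lowest in replicate 2, which had the highest mitosis sum, and Mthfd2 was highest in replicate 1, which had the lowest. In IM156 Mthfd2 ran opposite to the mitosis sum, and in control Psat1 was ordered like it and Mthfd2 was not. Atf4 was lowest in ODN replicate 1, where the mitosis sum was highest. All 20 mitosis genes were called higher for ODN against control, with a median log2 fold change of 1.95. The part of cell division in the changes of Psat1, Mthfd2 and Atf4 was not tested.

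**Figure D3:**
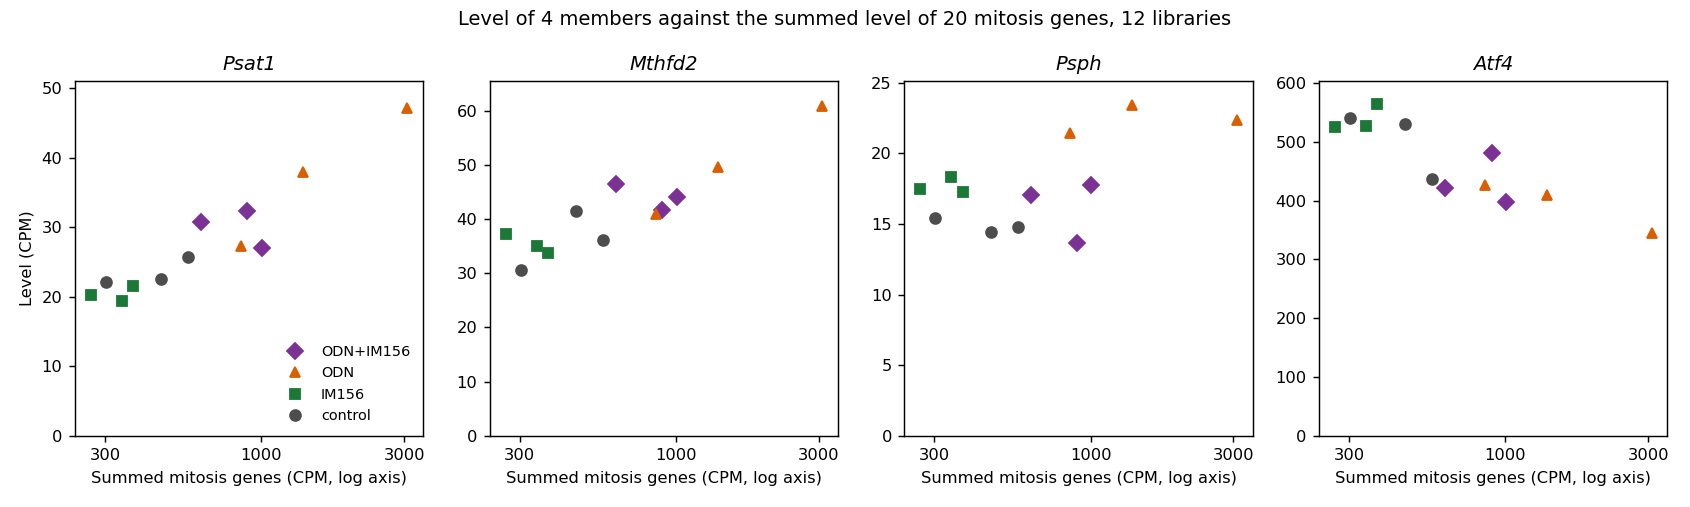
Level of Psat1, Mthfd2, Psph and Atf4 (y axes, CPM from 0) against the summed level of 20 mitosis genes (x axis, CPM, log axis), 1 point per library, coloured by group. ODN replicate 1 is the rightmost point at 3079 CPM and the highest in Psat1 (47.2) and Mthfd2 (60.8), while Psph in the ODN libraries stays within 21.4 to 23.4 CPM.

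Markers of other cells moved too. For ODN against control, 5 of 9 tested erythroid markers were lower, and their sum was 116 to 266 CPM in ODN and 690 to 886 CPM in control. In the same comparison, 1 of 10 dendritic cell markers and 7 of 10 platelet markers were higher (platelet sum 137 to 233 CPM in ODN, 48.9 to 73.4 CPM in control). So were 3 of 6 NK-cell markers (32.7 to 36.3 CPM in ODN, 6.35 to 10.8 CPM in control), 2 of 4 neutrophil markers (25.2 to 92.8 CPM in ODN, 7.55 to 10.04 CPM in control) and 4 of 13 monocyte and macrophage markers (101.2 to 143.2 CPM in ODN, 63.2 to 110.1 CPM in control). Ncr1, Klre1, Gzmb, Elane and Mmp8 had no count in control, and Elane and the erythroid Rhag had none in ODN. Of 8 tested T-cell markers none was called, although their sum was 36.7 to 45.2 CPM in ODN and 28.2 to 35.9 CPM in control, without overlap. Of 14 B-cell markers 2 were lower (Fcer2a and Ralgps2), and of 11 plasma cell markers none was called, with sums of 933 to 1111 CPM in ODN and 853 to 1025 CPM in control. The part of these cells in the members' changes was not tested.

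For IM156 against control, none of the 9 members was called, and 0% of all tested genes were. None of the 9 had an unadjusted p below 0.05 in edgeR, against 3.7% of all genes, and DESeq2 called 2 of all genes and no member. Psph was the nearest, with a log2 fold change of 0.25 (95% interval -0.05 to 0.55) and all 3 IM156 libraries above control. Psat1 was -0.20 (-0.54 to 0.14), with all 3 IM156 libraries below control. These 2 members stood without overlap, and 10.4% of all genes did. Atf4 was 0.10 (-0.12 to 0.32), Phgdh -0.05 (-0.28 to 0.19), Shmt2 -0.12 (-0.37 to 0.13) and Mthfd2 -0.03 (-0.32 to 0.26). The upper ends of these intervals bound a rise at 1.25-fold for Atf4, 1.14-fold for Phgdh, 1.09-fold for Shmt2 and 1.20-fold for Mthfd2. The median was -0.05 for the 9 members and 0.0002 for all genes. No marker of another cell type was called here, but the erythroid sum did not overlap, with 101.5 to 577.6 CPM in IM156 and 690.3 to 886.3 CPM in control. None of the 20 mitosis genes was called, with a median log2 fold change of -0.53. The part of either in these values was not tested.

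For ODN+IM156 against ODN, none of the 9 members was called, nor by DESeq2, and 0.0675% of all tested genes were called in edgeR. Psph had the smallest p among the members. It averaged 16.2 ± 2.20 CPM in ODN+IM156 and 22.4 ± 1.01 CPM in ODN (SD, n = 3 each), with all 3 ODN+IM156 libraries below those of ODN. Its log2 fold change was -0.47 (SE 0.140, 95% interval -0.77 to -0.18), with an unadjusted p of 0.00312 and an adjusted p of 0.0968 in edgeR. Phgdh also stood without overlap below ODN, at -0.16 (-0.39 to 0.07); 2 of 9 members and 19.1% of all genes did so in either direction. Psat1 was -0.32 (-0.64 to 0.01, adjusted p = 0.328 in edgeR). Without ODN replicate 3 Psat1 was -0.49 and was called (adjusted p = 0.0361 in edgeR). Mthfd2 was -0.19 (-0.48 to 0.09), Atf4 0.14 (-0.08 to 0.36), Shmt2 0.19 (-0.06 to 0.44) and Ddit3 -0.04 (-0.26 to 0.19). The median was -0.16 for the 9 members and -0.008 for all genes. No marker of another cell type was called here either, but the NK-cell sum did not overlap, with 18.0 to 25.1 CPM in ODN+IM156 and 32.7 to 36.3 CPM in ODN. None of the 20 mitosis genes was called, but all 20 lay below 0, with a median log2 fold change of -1.11. Their summed level was 630 to 1004 CPM in ODN+IM156 and 854 to 3079 CPM in ODN. The part of NK cells and of cell division was not tested.

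The interaction asks whether IM156 acted differently with ODN than without it. No member was called, and 0% of all tested genes were (12.3%, or 1453 genes, had an unadjusted p below 0.05 in edgeR, and DESeq2 called 165, no member among them). Psph had the smallest p of the members, ranked 137 of all genes. Its log2 interaction was -0.72 (SE 0.200, 95% interval -1.14 to -0.31, unadjusted p = 0.00182, adjusted p = 0.154 in edgeR), since its IM156 effect was 0.25 without ODN and -0.47 with it. The other members lay between -0.68 (Asns) and 1.55 (Trib3). Shmt2 had the next smallest p, with 0.32 (-0.04 to 0.67, adjusted p = 0.474 in edgeR).

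Set against control, ODN+IM156 gave no call among the 9 members, with 1.59% of all tested genes called. Psat1 was 0.36 higher on the log2 scale in the fit (0.02 to 0.69, adjusted p = 0.351 in edgeR) and Mthfd2 0.29 (0.0003 to 0.58, adjusted p = 0.387 in edgeR). The ODN+IM156 libraries of both enzymes were all above those of control, and those of Trib3 all below; 3 of the 9 members and 19.3% of all genes stood without overlap. Set against IM156, ODN+IM156 again gave no call, with 2.47% of all genes called. Psat1 was 0.56 (0.22 to 0.90, adjusted p = 0.0752 in edgeR) and Atf4 -0.32 (-0.53 to -0.10, adjusted p = 0.127 in edgeR). These and Mthfd2 (0.32, 0.03 to 0.61) stood without overlap, 3 of the 9 members, as did 24.6% of all genes. Without the low-count filter, and when only these groups were fitted, Psat1 and Atf4 were called. Psph was -0.13 (-0.43 to 0.16) there and 0.59 for ODN against control. These comparisons share libraries with those above. Markers of other cells were called in both: against control, 5 of 9 erythroid markers lower and 6 of 10 platelet, 1 of 6 NK-cell, 4 of 13 monocyte and macrophage and 3 of 10 dendritic cell markers higher. Against IM156, 3 of 9 erythroid markers were lower, and 5 of 10 platelet, 3 of 6 NK-cell, 2 of 4 neutrophil, 1 of 8 T-cell, 1 of 13 monocyte and macrophage and 2 of 10 dendritic cell markers were higher. Of the 20 mitosis genes, 14 were called higher against IM156 (median log2 1.38) and none against control (median 0.88). The part of these cells and genes was not tested.

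Counting order by mean level, Psph ran from ODN through IM156 and ODN+IM156 to control, and only ODN stood apart from its neighbour. For Psat1 the order was ODN, ODN+IM156, control and IM156, and ODN overlapped with ODN+IM156 while the other neighbours did not overlap. Mthfd2 had the same order, with a gap only between ODN+IM156 and control. Atf4 ran in the order IM156, control, ODN+IM156 and ODN, and each neighbouring pair overlapped.

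The wider pathways were taken as lists. Of 26 tested other serine and one-carbon genes, 3 were higher and none lower for ODN against control, a share close to the 10.6% of all tested genes. Tyms, thymidylate synthase, averaged 22.0 ± 12.98 CPM in ODN and 4.88 ± 2.78 CPM in control (log2 2.17, adjusted p = 0.00150 in edgeR). It is also known as a gene of the DNA synthesis phase. Sfxn1, a mitochondrial serine carrier, averaged 160.5 ± 13.8 CPM in ODN and 121.6 ± 5.26 CPM in control (log2 0.40, adjusted p = 0.00629 in edgeR). The median of the 26 was -0.10. Shmt1, the cytosolic counterpart of Shmt2, had 9.35 ± 0.840 CPM in ODN and 6.88 ± 1.03 CPM in control, and Mthfd1l, which follows Mthfd2 in mitochondria, 108.8 ± 17.1 CPM in ODN and 108.9 ± 16.7 CPM in control; neither was called.

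Of 26 tested other ATF4 target genes, of 36 listed, 1 was higher for ODN against control, below the 10.6% of all tested genes. This was Pck2, the mitochondrial enzyme that makes phosphoenolpyruvate, with 70.9 ± 30.5 CPM in ODN and 44.1 ± 2.92 CPM in control (log2 0.68, adjusted p = 0.0421 in edgeR). The median of the 26 was 0.02. Slc7a11, Sesn2, Nupr1, Gdf15, Vldlr and 4 further genes besides Fgf21 were counted too low to be tested, and Fgf21 had no count in any group. For IM156 against control none of the 26 was called, with a median of 0.06. Summed over all 36 genes, the level was 1390.1 to 1426 CPM in ODN+IM156, 1363 to 1450 CPM in ODN, 1550 to 1602 CPM in IM156 and 1407 to 1472 CPM in control, so that the 3 IM156 libraries lay above all 9 others. Among the genes in this sum, Ddit4 averaged 210.3 ± 5.87 CPM in IM156 and 143.8 ± 54.1 CPM in control (log2 0.55, adjusted p = 0.999 in edgeR). Ppp1r15a, which encodes the eIF2 phosphatase subunit GADD34, averaged 120.1 ± 11.7 CPM in IM156 and 92.4 ± 24.1 CPM in control (0.38, 0.999). Cebpg, also in the sum, went the other way, with 55.5 ± 1.48 CPM in IM156 and 62.4 ± 4.05 CPM in control. Ppp1r15a and Cebpg were named after their values were seen. Of the 26 tested genes 19 were above 0 on the log2 scale, and 50.0% of all tested genes were. Genes with high levels weigh most in such a sum, and its difference was not tested. Wars, a tRNA synthetase that interferon also induces in human cells, was the 1 gene called for ODN+IM156 against control (34.2 ± 6.05 CPM in ODN+IM156 and 19.6 ± 2.64 CPM in control, log2 0.81, adjusted p = 0.0341 in edgeR). For ODN+IM156 against IM156, 2 were lower. Ddit4, an inhibitor of mTORC1, averaged 106.2 ± 31.9 CPM in ODN+IM156 and 210.3 ± 5.87 CPM in IM156 (log2 -0.99, adjusted p = 0.0366 in edgeR). The other was Cebpb, a partner of ATF4 on DNA, named after its values were seen (-0.78, 0.0446).

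Upstream, the list held 17 kinases, phosphatases and other upstream genes of the response. For ODN against control 1 was higher and 1 lower, a share close to the 10.6% of all tested genes. Eif2s2 (eIF2 beta) was the higher one (592.8 ± 34.8 CPM in ODN and 468.5 ± 24.98 CPM in control, log2 0.34, adjusted p = 0.00948 in edgeR). Eif2ak3, which encodes the endoplasmic reticulum kinase PERK, was lower. It averaged 51.0 ± 3.26 CPM in ODN+IM156, 58.8 ± 3.94 CPM in ODN, 73.5 ± 4.93 CPM in IM156 and 76.9 ± 9.05 CPM in control. Its log2 fold change was -0.38 for ODN against control (adjusted p = 0.0220 in edgeR), -0.59 for ODN+IM156 against control (0.00346) and -0.53 for ODN+IM156 against IM156 (0.00876). Of 18 tested other unfolded protein response genes, 1 was higher for ODN against control, below the 10.6% of all tested genes. This was Manf, a secreted factor of the endoplasmic reticulum (117.4 ± 9.28 CPM in ODN and 89.7 ± 7.75 CPM in control, log2 0.39, adjusted p = 0.0147 in edgeR). For IM156 against control no gene of these lists was called, nor for ODN+IM156 against ODN. The sum of the 17 upstream genes was 1260 to 1320 CPM in control. All IM156 libraries (1331 to 1355 CPM) and all ODN libraries (1332 to 1420 CPM) lay above that. Genes with high levels weigh most in this sum too, and Eif2s2 alone averaged 525.1 CPM in IM156, 592.8 CPM in ODN and 468.5 CPM in control. The median log2 fold change of the 17 genes was -0.009 for IM156 against control and 0.013 for ODN against control. These sums were not tested.

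Profiles over the 12 libraries were compared by the root mean square distance between log2 values scaled to an SD of 1. Among 8232 genes, those nearest to Atf4 were Cebpz (0.250), Gnl2 (0.277) and Xkrx (0.301), where the median gene was at 1.31. Nearest to Mthfd2 were the cell-cycle genes E2f1 (0.269) and Aurka (0.271), with the median at 1.39. For Ddit3 the nearest were farther off: Sh2d3c (0.534), Sept1 (0.591) and Tmub2 (0.604), with the median at 1.34. Among members the closest pair was Mthfd2 and Psat1, at 0.460. All genes share the libraries and their scaling, so these distances are descriptions.

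**Figure D4:**
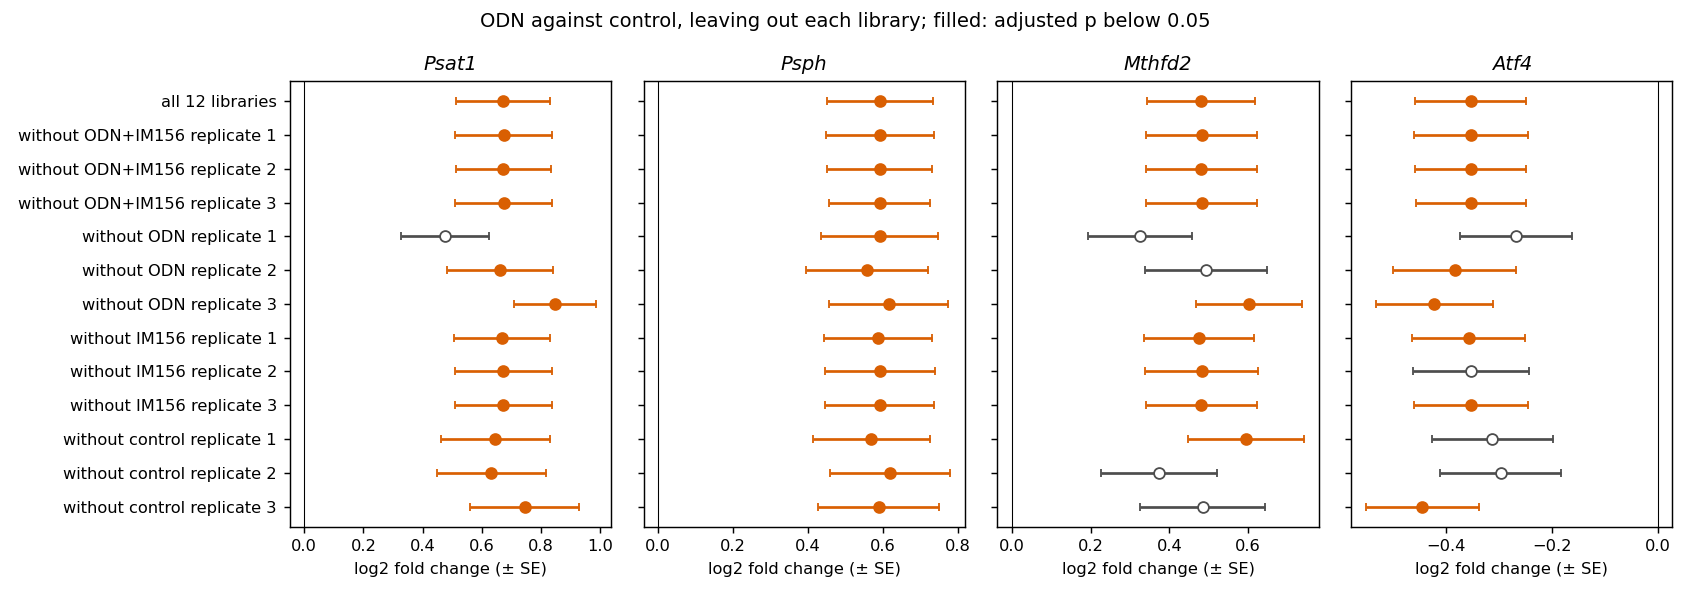
Log2 fold change ± SE for ODN against control (x axes) of Psat1, Psph, Mthfd2 and Atf4, with all 12 libraries and without each library in turn (y axis); filled points have an adjusted p below 0.05. Psph stays filled in every row (0.56 to 0.62), Psat1 loses its call only without ODN replicate 1 (0.47), and Mthfd2 (0.33 to 0.60) and Atf4 (-0.44 to -0.27) lose theirs in 4 rows each.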

How the data were processed

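RNA of splenic B cells was read with the Lexogen QuantSeq 3′ kit, whose reads lie at transcript 3′ ends, per the labels' protocols. The authors deposited whole-number read counts per gene symbol, the unit used here. The submitters' processing notes name GRCm38 (mm10), Bowtie2, bedtools and edgeR; versions, annotation and the strand rule are not given in the sources used here. A further 12 normalized and 4 averaged columns were left aside. Of the 23282 rows, 5883 had no count and 35 symbols were repeated.

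The counts went into edgeR 4.0.16 (R 4.3.3): filterByExpr (11857 genes; median count per library 258), TMM factors, and 1 quasi-likelihood fit to all 12 libraries with 1 mean per group (8 residual degrees of freedom). Tests were two-sided, with Benjamini-Hochberg adjustment over all genes tested in a comparison and intervals of 95%. Averaged over rows, with Rn45s included, the variance between replicate libraries was 5.14 to 67.8 times that of counting error. This is a chi-square divided by its degrees of freedom, for genes with at least 20 summed counts. The ODN pairs with replicate 2, the library with the least Rn45s, had 65.1 and 67.8. ODN replicates 1 and 3 had 22.3, near the 18.6 of IM156 replicates 1 and 3. Rn45s had 827396, 167940 and 920348 counts in ODN replicates 1, 2 and 3. A single row with so many counts can weigh heavily in these values, so they need not describe the spread of a typical gene. Its part was not tested. Asns, Trib3 and Chac1 had at most 19 counts in a library, and depth limits their precision. The single spread per gene pools all groups. Alternatives were DESeq2 1.42, other scalings, no filter, no Rn45s, only the groups compared, a replicate block, robust spread and leaving out each library. The statistics were also run on simulated counts drawn from the fitted spread, with changes in ODN alone. These had no libraries that stand apart, so that run does not check the calls given here.

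All members are named. From each list, up to 4 called genes per direction with the largest change and a mean of at least 10 CPM are named, and, for Atf4, Ddit3 and Mthfd2, the 3 genes nearest in profile of log2(CPM + 1); a few genes that this rule picks are not reported here. The members, lists and tests were chosen with earlier results of these data known. Positions are from GENCODE M21 on GRCm38.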

Additional observations from a re-analysis of the deposited data

How the results depend on the processing

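For ODN against control 4 members were called, and the count was 1 (Psph) when only the groups compared were fitted and 1 to 4 when a library was left out: 1 without ODN replicate 1 (Psph) and 2 without control replicate 2 (Psat1 and Psph). With a replicate block it was 3, as Atf4 reached an adjusted p of 0.0505 in edgeR; replicate numbers did not pair the libraries (correlations of same-numbered libraries -0.114 to 0.0903; 2 of 12 libraries lay closest to their own number), and the block changed no other member's call. Psph was called under 20 of 20 alternatives, Psat1 under 18, Mthfd2 and Atf4 under 14 each. ODN+IM156 against IM156 gave 0 members, against 1 with DESeq2 (Psat1), 2 without the filter and 2 with only the groups compared (Atf4 and Psat1), and 0 to 1 with a library left out (Psat1 without ODN replicate 1 or 3). ODN+IM156 against ODN gave 0, and 0 to 1 with a library left out (Psat1 without ODN replicate 3). For IM156 against control, ODN+IM156 against control and the interaction the count of members was 0 under all alternatives; fitting only the groups compared gives no value for the interaction.

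Changes of direction occurred in members without a call. Scaling by library totals turned Ddit3 to 0.015 for ODN+IM156 against ODN and to 0.017 for the interaction. With a library left out, log2 values ranged for Ddit3 from -0.14 to 0.054 (ODN against control), -0.078 to 0.086 (IM156 against control), -0.11 to 0.047 (ODN+IM156 against ODN), -0.15 to 0.017 (ODN+IM156 against control) and -0.12 to 0.075 (interaction). They ranged for Asns from -0.14 to 0.59 (ODN against control) and -0.52 to 0.21 (IM156 against control), and for Phgdh from -0.12 to 0.032 (IM156 against control) and -0.013 to 0.14 (ODN+IM156 against control). For Mthfd2 they ranged from -0.14 to 0.084 (IM156 against control), for Shmt2 from -0.13 to 0.080 (ODN+IM156 against control), and for Trib3 from -0.87 to 0.21 (ODN+IM156 against IM156). In the interaction Atf4 ranged from -0.044 to 0.13 and Psat1 from -0.28 to 0.089. The cause was not tested. Over all genes, ODN against control had 1255 calls, 598 with only the groups compared and 763 to 1874 with an ODN library left out; ODN+IM156 against ODN had 8, and 373 with DESeq2, 664 without the filter and 794 without ODN replicate 3; IM156 against control had 0, and 53 without the filter. Chac1 could be tested only without the filter and was not called in any comparison.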
